A study of Mus musculus with 6 samples.

Results

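The 10 genes described here encode antiviral effectors that interferon induces: Ifit1, Ifit2, Ifit3, Oas1b, Oasl2, Isg15, Usp18, Rsad2, Mx2 and Samd9l. They were found by symbol among the 24421 genes of the deposited count table, all 10 were present, and all 10 were among the 13560 genes that passed the filter on low counts. The genes were chosen by name with their CFA and saline counts in these 6 libraries already known, that is, on the fold change described below. Their levels and fold changes in that comparison are therefore a description, are given without a p-value, and support nothing beyond themselves.

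RNA was measured in sorted nuclei of Foxp2-positive neurons of the mouse medial prefrontal cortex (mPFC). There were 3 libraries from mice given CFA, an emulsion (complete Freund's adjuvant) that causes long-lasting inflammation, and 3 from mice given saline. Mice of both groups carried the Foxp2-Cre allele and had received bilateral mPFC injections of an adeno-associated virus expressing KASH-GFP, a nuclear envelope tag, 4 weeks before collection. Labelling was thus limited to cells with Cre at the injection site, and every library came from virus-injected cortex. Strain, age, sex, the route of CFA and the time since CFA are not given in the labels, which also do not say whether each library came from a separate animal, so error values measure the spread between these libraries and may be partly technical.

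Type I interferons bind a receptor that activates the kinases Jak1 and Tyk2, and a complex of Stat transcription factors and Irf9 then enters the nucleus and binds the interferon-stimulated response element (ISRE) in front of target genes. The effectors made in this way act at separate steps of infection. Ifit proteins bind foreign RNA, oligoadenylate synthetases sense double-stranded RNA, Isg15 is a ubiquitin-like tag, and Mx proteins are GTPases that block viral components. Neurons, glia and vascular cells can all respond to interferon, and most tissues keep the genes at a low basal level.

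The response element is the sequence feature that these genes are known to share, so the stretches holding it are shown. RefSeq start sites on GRCm38.p6 (the mm10 build) were matched for 7 of the 10 genes, all but Oas1b, Usp18 and Mx2. The letters GAAANNGAAA were searched on both strands in the 250 bases upstream of each start. They were present in front of Ifit1, Ifit3, Isg15 and Rsad2, or 4 of 7 genes, against 3.46% of the 27025 genes with such a window. Capitals mark the matches, each sequence runs 5′ to 3′ along its gene, and TTTCNNTTTC is the same motif on the other strand.
Ifit1, chr19:34640760-34640838, plus strand: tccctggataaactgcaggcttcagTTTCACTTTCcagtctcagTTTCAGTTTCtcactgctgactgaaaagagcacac
Ifit3, chr19:34583348-34583441, plus strand: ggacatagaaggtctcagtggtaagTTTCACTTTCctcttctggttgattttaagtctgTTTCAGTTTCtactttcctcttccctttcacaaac
Isg15, chr4:156200850-156200921, minus strand: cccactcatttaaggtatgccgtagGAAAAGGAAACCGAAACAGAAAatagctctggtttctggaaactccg
Rsad2, chr12:26456538-26456597, minus strand: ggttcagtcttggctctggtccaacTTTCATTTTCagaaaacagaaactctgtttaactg

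Ifit1 and Ifit3 each held 2 separate matches, and in both genes the upstream match read TTTCACTTTC and the downstream match TTTCAGTTTC. In Ifit1 they began 104 and 85 bases before the start, and in Ifit3 they began 156 and 122 bases before it. Isg15 held 3 matches that overlap in a single run, and Rsad2 held 1. The letters were not in these windows of Ifit2 (2 start sites), Oasl2 or Samd9l. The letters TTCNNNGAA, which read alike on both strands and form the site of Stat dimers, were found for 1 of the 7 genes, Ifit2, against 8.13% of all genes. A match of letters is a description and was not tested as a binding site.

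Total counts were 10663201 to 11850741 in CFA libraries and 9673038 to 11117681 in saline libraries. Levels are CPM, counts scaled to the size of each library, and by TMM factors, which correct for library composition, and group values are means ± SD over 3 libraries. A count of 3, the limit that a count of 0 allows, equals 0.25 to 0.288 CPM in CFA libraries and 0.268 to 0.304 CPM in saline libraries. These limits cover counting error only, because PCR copies were not told apart by molecular identifiers. Excitatory neuron markers summed to 3491 to 4106 CPM in CFA and 3298 to 3823 CPM in saline libraries, and Foxp2 itself averaged 29.2 ± 5.5 CPM in CFA libraries, against 33.8 ± 8.61 CPM in saline libraries.

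The comparison of CFA with saline asked which transcripts of these neurons differ in mice with inflammatory pain. The mean level of each of the 10 effectors was higher in CFA libraries, 1.87-fold to 11.2-fold by the fitted values, and 5 of them were higher in every CFA library than in every saline library. The libraries within each group also differed: CFA replicate 3 held the highest level of 9 genes and saline replicate 2 the lowest of 8. Among CFA libraries the highest was 1.49 times the lowest for Samd9l and 18.1 times for Isg15, the extremes of the 10. After Benjamini-Hochberg adjustment over all 13560 genes in edgeR's quasi-likelihood test, 0 of the 10 passed an adjusted p of 0.05, as did 0% of all genes. At an unadjusted p under 0.05 there were 7 of the 10, against 3.22% of all genes, and since this comparison guided the choice of genes nothing is read from that count.

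**Figure D1:**
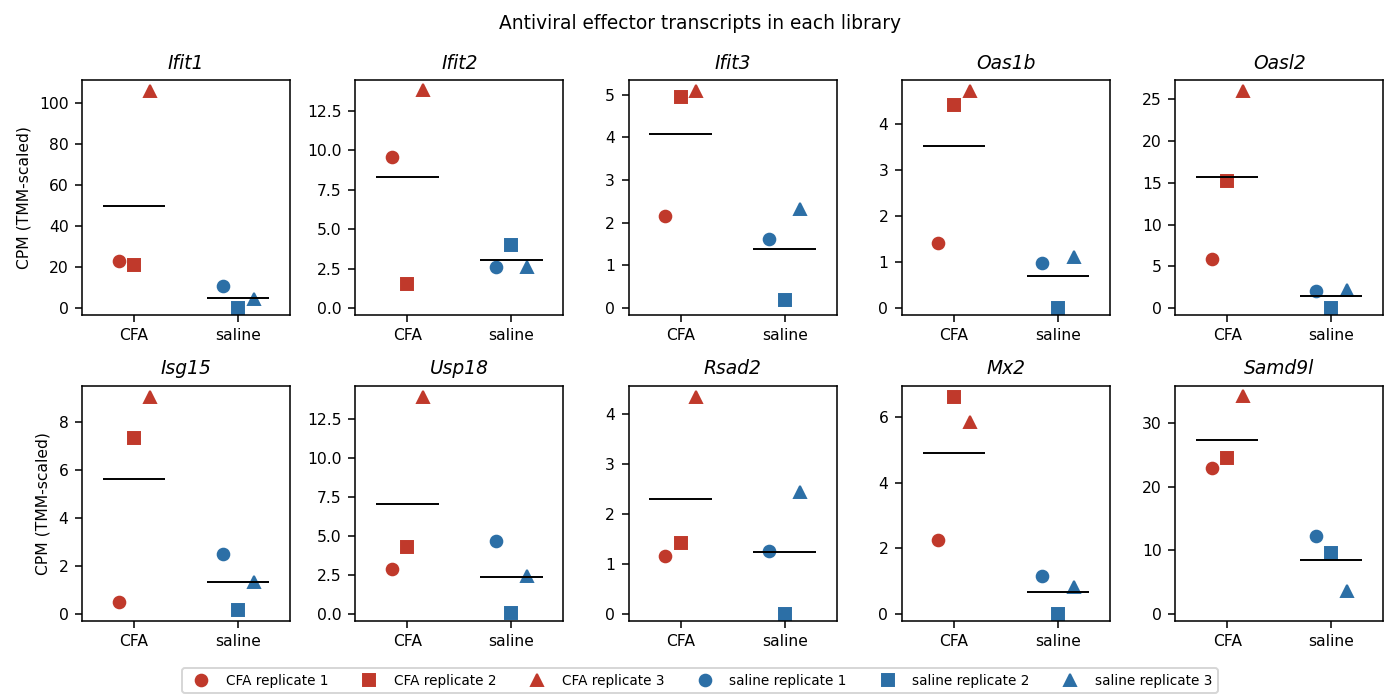
TMM-scaled CPM (vertical axis, linear) of each of the 10 genes in the 3 CFA (red) and 3 saline (blue) libraries, with marker shape giving the replicate number and the bar the group mean. Ifit1, Oas1b, Oasl2, Mx2 and Samd9l do not overlap between the groups, and CFA replicate 3 is the top point for all genes but Mx2.

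Ifit1, Ifit2 and Ifit3 encode tetratricopeptide repeat proteins that bind viral RNA or the complexes it forms, and lie in 1 cluster on chromosome 19, where Ifit1bl1, Ifit3b and Ifit1bl2 separate Ifit3 from Ifit1. Ifit1 (chromosome 19, 34640889 to 34650009, plus strand) was at 22.9, 21.3 and 106 CPM in CFA replicates 1, 2 and 3, against 10.7, 0 and 4.36 CPM in saline replicates 1, 2 and 3. All CFA libraries lay above all saline libraries, but CFA replicate 3 was 4.96 times CFA replicate 2. The log2 fold change was 3.30 ± 0.83 (SE), the second largest of the 10, and ranged from 2.14 without CFA replicate 3 to 4.54 without saline replicate 1.

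Ifit2 (chromosome 19, 34550694 to 34576534, plus strand) did not follow Ifit1. It was at 9.57, 1.5 and 13.8 CPM in CFA libraries, against 2.59, 3.99 and 2.63 CPM in saline libraries. CFA replicate 2 was the lowest library of the 6, and saline replicate 2, where Ifit1 had no count, was the highest saline library with 43 counts. Its log2 fold change was 1.43 ± 0.63 (SE), and was 0.86 without CFA replicate 3 and 1.92 without CFA replicate 2.

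Ifit3 (chromosome 19, 34583529 to 34588982, plus strand) was at 2.16, 4.94 and 5.09 CPM in CFA libraries, against 1.61, 0.185 and 2.33 CPM in saline libraries. CFA replicate 1 lay within the saline range, and saline replicate 2 had only 2 counts. The log2 fold change was 1.56 ± 0.79 (SE), and was 1.04 without saline replicate 2 and 2.16 without saline replicate 3. Of the 50-base stretches of its GENCODE transcript, 51.2% also occur in transcripts of Ifit3b, so reads of the pair may have been divided or dropped and both levels are uncertain. Ifit3b averaged 1.86 ± 0.464 CPM with CFA and 0.283 ± 0.244 CPM with saline. Ifit1 shared 7.13% of its stretches, mostly with Ifit1bl2, whose model ends 146 bases from it, and Ifit2 shared 0%.

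**Figure D2:**
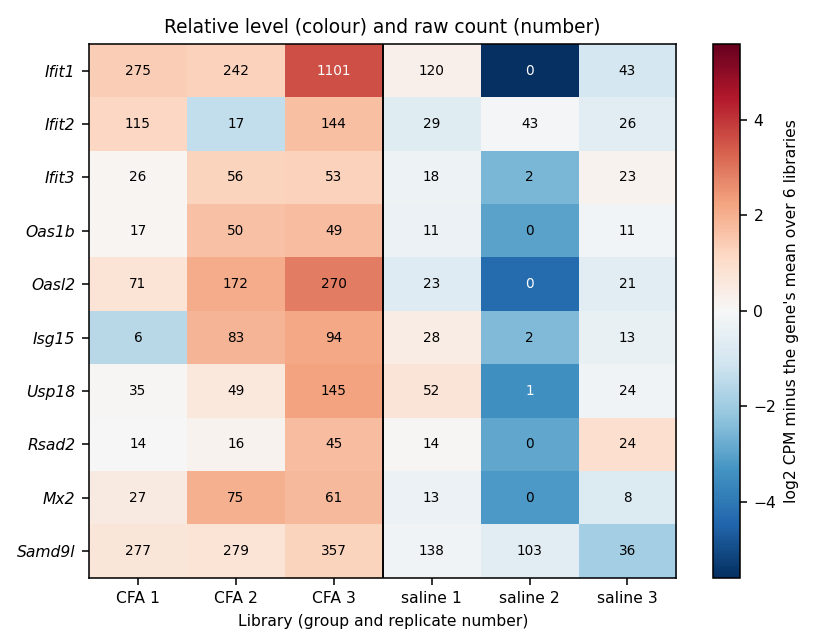
Colour gives log2 CPM minus the gene's own mean over the 6 libraries, and the number in each cell is the raw count, for the 10 genes (rows) in CFA libraries (left of the line) and saline libraries (right). Saline replicate 2 is the darkest blue column, with 0 counts for 5 genes, while Ifit2 and Samd9l keep 43 and 103 counts there.

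The oligoadenylate synthetase family was represented by Oas1b and Oasl2. Oas1b, known from mice for the resistance to flaviviruses that its intact allele confers, lies on chromosome 5 (120812635 to 120824160, plus strand). It was at 1.41, 4.41 and 4.71 CPM in CFA libraries, against 0.984, 0 and 1.11 CPM in saline libraries. The groups did not overlap, but CFA replicate 1 and saline replicate 3 rested on 17 and 11 counts, and the log2 fold change was 2.31 ± 0.95 (SE). It was 1.73 without saline replicate 2 and 2.80 without saline replicate 3.

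Oasl2, a synthetase-like protein with ubiquitin-like domains (chromosome 5, 114896934 to 114912245, plus strand), was at 5.91, 15.2 and 26.0 CPM in CFA libraries, against 2.06, 0 and 2.13 CPM in saline libraries. Every CFA library was more than 2 times the highest saline library, and the log2 fold change of 3.48 ± 0.76 (SE) was the largest of the 10. It ranged from 2.90 without saline replicate 2 to 3.90 without saline replicate 3, and was 2.32 without both CFA replicate 3 and saline replicate 2, a setting chosen after the data were seen.

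Isg15 and Usp18 form a pair of tag and eraser: Usp18 removes Isg15 from proteins and also restrains the interferon receptor. Isg15 (chromosome 4, 156199424 to 156200818, minus strand) was at 0.499, 7.32 and 9.04 CPM in CFA libraries, against 2.51, 0.185 and 1.32 CPM in saline libraries. The groups overlapped, because CFA replicate 1, with 6 counts, lay below saline replicates 1 and 3, and the CFA libraries differed 18.1-fold. Usp18 (chromosome 6, 121245906 to 121270917, plus strand) was at 2.91, 4.32 and 13.9 CPM in CFA libraries, against 4.65, 0.0927 and 2.43 CPM in saline libraries. Saline replicate 1 lay above 2 of the 3 CFA libraries. The log2 fold change of Isg15 was 2.06 ± 0.92 (SE), and was 1.53 without CFA replicate 3, 2.89 without saline replicate 1 and 1.01 without both CFA replicate 3 and saline replicate 2. That of Usp18 was 1.55 ± 0.84 (SE), and was 0.60 without CFA replicate 3, 2.48 without saline replicate 1 and 0.02 without both CFA replicate 3 and saline replicate 2.

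Rsad2 encodes viperin, an enzyme that makes a chain-terminating nucleotide (chromosome 12, 26442743 to 26456452, minus strand). It was at 1.16, 1.41 and 4.33 CPM in CFA libraries, against 1.25, 0 and 2.43 CPM in saline libraries. Saline replicate 3 lay above CFA replicates 1 and 2, and the log2 fold change of 0.90 ± 1.01 (SE) was the smallest of the 10 and less than its error. Leaving out CFA replicate 3 gave 0.08 and leaving out saline replicate 3 gave 1.85, and the value turned to -0.52 without both CFA replicate 3 and saline replicate 2.

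Mx2 and Samd9l were both higher in every CFA library than in any saline library. Mx2, an interferon-induced GTPase (chromosome 16, 97536081 to 97560901, plus strand), was at 2.25, 6.61 and 5.86 CPM in CFA libraries, against 1.16, 0 and 0.811 CPM in saline libraries. Saline replicate 2 was again at 0, and the log2 fold change of 2.88 ± 0.90 (SE) lay between 2.30 and 3.59 when any 1 library was left out. Samd9l, a restriction factor against poxviruses (chromosome 6, 3372258 to 3399571, minus strand), was at 23.0, 24.6 and 34.3 CPM in CFA libraries, against 12.3, 9.55 and 3.65 CPM in saline libraries. Its CFA libraries differed by only 1.49-fold, and its lowest library was saline replicate 3, not saline replicate 2. Its log2 fold change of 1.68 ± 0.37 (SE) had the smallest error of the 10 and stayed between 1.32 and 2.04.

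**Figure D3:**
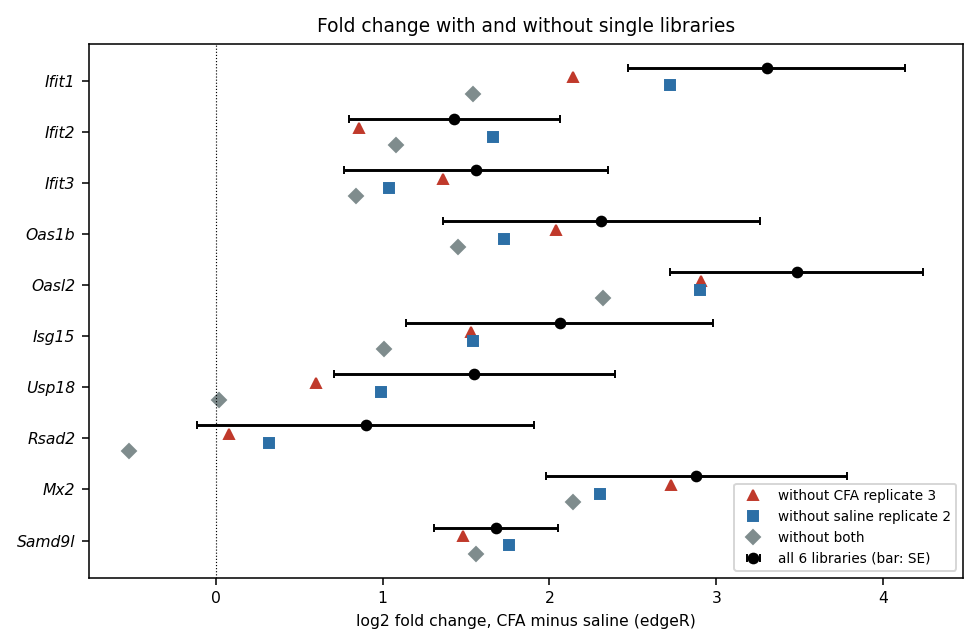
Log2 fold change, CFA minus saline, of each gene with all 6 libraries (black, bar: SE) and without CFA replicate 3 (red), without saline replicate 2 (blue) or without both (grey). Samd9l stays near its value with all libraries, while Usp18 reaches 0.02 and Rsad2 -0.52 without both libraries.

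Across the 10 genes the median log2 fold change was 1.87, against 0.00 over all genes tested, and 9 of the 10 had a log2 fold change of at least 1, as had 1.85% of all genes. Without CFA replicate 3 and saline replicate 2 the median was 1.27, and 7 of the 10 reached 1, against 2.88% of all genes. The groups did not overlap for 5 of the 10 (Ifit1, Oas1b, Oasl2, Mx2 and Samd9l), where 3.55% of all genes were higher in every CFA library. Without those libraries 5 of the 10 again did not overlap, where 12.9% of all genes did not. Other tools called few of the 10. DESeq2 called Samd9l among its 5 genes (0.0369% of all genes), edgeR's likelihood ratio test called Oasl2 and Samd9l among its 11 (0.0811%), and limma-voom called 0 (0%). Without a filter on low counts the quasi-likelihood test called Ifit1, Oasl2 and Samd9l among 9 genes (0.0498%). All of these counts come from the comparison used in choosing the genes.

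The order of levels was compared per length of exon (CPM per kilobase), since the gene models differ from 756 bases for Isg15 to 5328 bases for Samd9l. In CFA libraries Ifit1 came first at 19.0 ± 18.3 CPM per kilobase, then Isg15 at 7.43 ± 5.97, Samd9l at 5.13 ± 1.15, Oasl2 at 5.0 ± 3.2 and Usp18 at 3.98 ± 3.39. Ifit2, Ifit3, Mx2 and Oas1b lay together between 1.91 and 2.10, and Rsad2 was last at 0.608 ± 0.465 CPM per kilobase. None of these neighbours differed by more than the sum of their SDs. In saline libraries Ifit1, Isg15, Samd9l and Usp18 led with 1.91 ± 2.05, 1.77 ± 1.53, 1.60 ± 0.834 and 1.35 ± 1.29 CPM per kilobase, and Oasl2 stood seventh at 0.445 ± 0.385. Mx2 was last there at 0.271 ± 0.246 CPM per kilobase.

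The genes were chosen on the fold change, to which single high or low libraries contribute. The order of libraries within a group is therefore not free of that choice and is given as a description. Among CFA libraries, replicate 3 was highest for 9 of the 10 genes, all but Mx2, where it was highest for 31.5% of all genes tested. CFA replicate 1 was lowest for 8 of the 10, against 36.1% of all genes. Among saline libraries, replicate 2 was lowest for 8 of the 10, all but Ifit2 and Samd9l, against 30.2% of all genes. The 10 genes are induced by the same pathway and were measured in the same libraries, so these counts do not come from 10 separate observations.

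In saline replicate 2 the counts of Ifit1, Oas1b, Oasl2, Rsad2 and Mx2 were 0, or 5 of the 10 genes against 1.11% of all genes tested. Usp18 had 1 count there, and Ifit3 and Isg15 had 2 each. In the other 5 libraries Ifit1 averaged 33.0 CPM. Of the 6588 genes with at least that average there, Ifit1 was the 1 gene at 0 in saline replicate 2. Oasl2 averaged 10.2 CPM in those 5 libraries, and of the 9864 genes at or above that average 2 were at 0 in saline replicate 2, Ifit1 and Oasl2. Both averages include the CFA libraries, on whose higher levels the genes were chosen. In saline replicates 1 and 3, Ifit1 was at 10.7 and 4.36 CPM and Oasl2 at 2.06 and 2.13 CPM. These counts were also chosen after the values were seen, so nothing is read from them. Saline replicate 2 was not shallow, with 11117681 counts, though its 15268 genes detected were the fewest, against 15450 to 16075 in the other libraries.

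The spread within groups was large for genes of this abundance. The biological coefficient of variation, which edgeR estimates from the libraries of a group after counting error is taken out, had a median of 64.6% over the 10 genes and 21.8% over all genes tested. Low counts raise this value, so each gene was also set beside the genes within 0.5 of its own mean log2 CPM. Ifit1 stood at 72.4%, above all 2354 such genes, whose median was 21.6%. Oasl2 stood at 56.2%, where 7 of 1339 such genes were higher. Samd9l had the lowest value of the 10 at 30.6%, above 92.7% of such genes, and Ifit3 at 60.3% was above 78.4%. All 10 lay above the median of genes of like abundance.

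**Figure D4:**
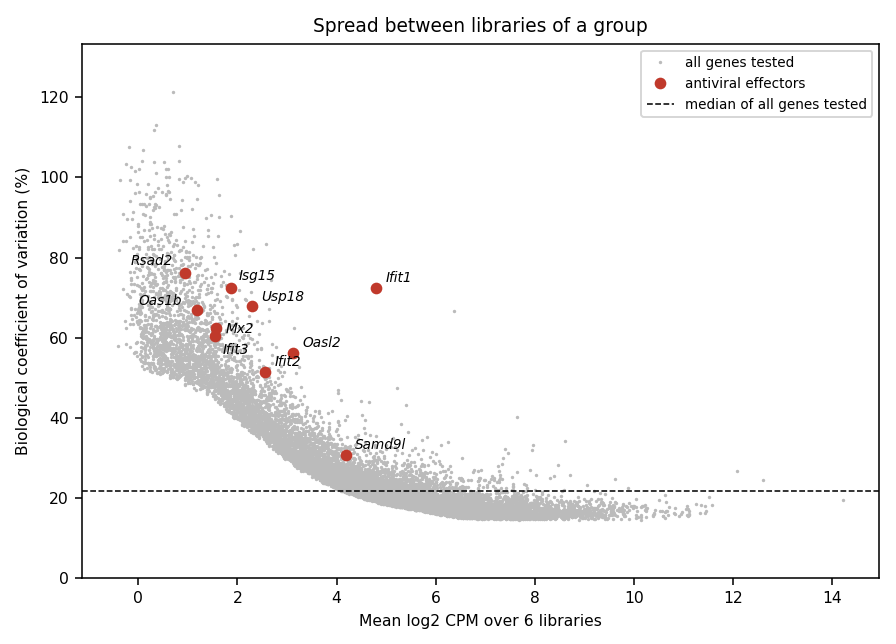
Biological coefficient of variation within groups (percent) against mean log2 CPM over the 6 libraries, for all genes tested (grey) and the 10 antiviral effectors (red), with the dashed line at the median of all genes, 21.8%. Ifit1, at 72.4%, stands far above genes of its abundance.

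The other genes of the interferon pathway were taken by role from a list of 101 symbols, of which 98 were in the table and 64 were tested. The list was drawn up with earlier results of these data known. Its genes belong to the same pathway as the effectors and were measured in the same libraries. Its counts are therefore a description and no separate support. In edgeR's quasi-likelihood test 0 of the 64 passed an adjusted p of 0.05. At an unadjusted p under 0.05, 13 of the 64 were higher in CFA and 0 lower, against 1.35% and 1.87% of all genes. The median log2 fold change was 0.29, with 46 of 64 positive, against 49.8% of all genes. Without CFA replicate 3 and saline replicate 2 it was 0.11, with 36 positive, 4 higher and 1 lower at an unadjusted p under 0.05. The shares of all genes above are from the fit of all 6 libraries. Those of the reduced fit are not given here, so nothing is read from its counts.

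Transcripts of the ligands were at or near 0. The 10 interferon genes looked at had 0 counts in total in CFA libraries and 7 counts in saline libraries, where Ifnb1, the main type I interferon of tissue cells, had 2 counts in saline replicate 1. A count of 0 allows up to 0.25 to 0.288 CPM per gene in each CFA library. The receptors and their kinases were detected, and the 3 most abundant differed by less than the spread between libraries. Ifnar1, a chain of the type I receptor, averaged 48.7 CPM with CFA, against 55.5 CPM with saline. Ifngr2, a chain of the type II receptor, averaged 73.0 CPM with CFA and 78.1 CPM with saline, and Jak1 averaged 208 CPM with CFA and 191 CPM with saline. Of 8 tested members 1 was positive, with a median log2 fold change of -0.16.

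Over 8 tested transcription factors of the pathway the median log2 fold change was 0.56, with Irf1, Irf7 and Irf9 among those at an unadjusted p under 0.05. Stat2 averaged 86.5 CPM with CFA and 70.2 CPM with saline, and Irf9 averaged 31.8 CPM with CFA and 18.1 CPM with saline. Among sensors, Tbk1, Ifih1 and Mavs had log2 fold changes of 0.12, 0.60 and 1.04, and 1 of 7 tested, Ddx58, was higher at an unadjusted p under 0.05, against 1.35% of all genes. Of the negative regulators besides Usp18, Ptpn2, Pias1 and Socs3 had log2 fold changes of 0.02, -0.06 and 0.18.

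In the enzyme chain that attaches Isg15 to proteins, the members differed. Uba7, which activates Isg15, was at 4.66, 3.88 and 8.27 CPM in CFA libraries, against 0, 0.927 and 0 CPM in saline libraries. The groups did not overlap, and saline replicates 1 and 3 had no count, so that here saline replicate 2 was the highest of its group. DESeq2 and edgeR's likelihood ratio test called it higher, with adjusted p-values of 0.0262 and 0.0158, while edgeR's quasi-likelihood test gave an adjusted p of 0.952. Uba7 was named after its values were seen. The conjugating enzyme Ube2l6 averaged 5.66 CPM with CFA and 2.72 CPM with saline. The ligase Herc6 averaged 24.4 CPM with CFA and 22.2 CPM with saline, and the ligase Arih1 averaged 62.7 CPM with CFA and 67.3 CPM with saline. All 3 overlapped between the groups.

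Over 32 other antiviral effectors tested the median log2 fold change was 0.45. Of these 25 were positive, against 49.8% of all genes, and 7 were higher in every CFA library than in every saline library, against 3.55% of all genes. Among the most abundant, Adar, which edits double-stranded RNA, averaged 156 CPM with CFA and 128 CPM with saline, without overlap. Shisa5 averaged 180 CPM with CFA and 155 CPM with saline, and Ifi27 averaged 75.9 CPM with CFA and 85.3 CPM with saline. Ifit1bl1, which lies inside the Ifit cluster, was at 7.74, 4.41 and 5.96 CPM in CFA libraries, against 10.7, 7.88 and 4.16 CPM in saline libraries. Its saline replicate 2 was not low, unlike that of Ifit1.

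The genes whose log2 CPM over the 6 libraries was most like the mean of the 10 effectors were Gsap, Tbrg4, Irf7, Otub2, Amer3 and Ankle2, with a Pearson r of 0.982, 0.982, 0.981, 0.975, 0.974 and 0.969. This is a description over 6 libraries that share depth and group with the effectors, out of 11001 genes compared, of which 53 had an r above 0.9. Irf7, the transcription factor that amplifies interferon output, was at 7.57, 7.14 and 17.7 CPM in CFA libraries, against 3.04, 0.556 and 2.84 CPM in saline libraries, and was the 1 gene of the 6 on the pathway list. The others moved over a narrower range, Ankle2 between 67.9 and 71.7 CPM in CFA and between 58.0 and 64.0 CPM in saline libraries.

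Markers of other cells moved with the effectors in part. The summed level of the 10 effectors was 71.8, 91.6 and 223 CPM in CFA libraries, against 39.9, 14.0 and 23.2 CPM in saline libraries. The 14 microglia markers, all tested, summed to 142, 175 and 112 CPM in CFA libraries, against 144, 89.4 and 97.3 CPM in saline libraries. Both sums were lowest in saline replicate 2, but CFA replicate 3, highest in effectors, was below saline replicate 1 in microglia markers. No microglia marker was at 0 in every library, and the log2 fold change was positive for 12 of 14 and 0.37 at the median.

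The 12 astrocyte markers summed to 597, 719 and 512 CPM in CFA libraries, against 510, 583 and 563 CPM in saline libraries, with none at 0, a median log2 fold change of 0.31 and CFA replicate 3 lowest in its group. The 12 vascular and meningeal markers summed to 11.1, 5.03 and 4.42 CPM in CFA libraries, against 14.6, 9.0 and 6.69 CPM in saline libraries, and 0 of the 4 tested were positive. Of 10 blood leukocyte markers, 6 were at 0 in all libraries, among them Cd3e, Ms4a1, Ly6c2, S100a8 and S100a9, and the sum was 0.582 CPM or less in CFA libraries, against 0 CPM in saline libraries.

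Lists of neurons and of the oligodendrocyte lineage differed too. The 7 oligodendrocyte precursor markers summed to 41.1, 46.1 and 32.8 CPM in CFA libraries, against 33.4, 26.7 and 21.4 CPM in saline libraries. Their median log2 fold change over 6 tested members was 0.47, with 4 positive, and the members went in both directions. Gpr17 (2.91) and Olig1 (0.75) were higher in every CFA library than in every saline library. Cspg4 (-1.10) was lower in every CFA library than in every saline library. Cacng4 (-0.64) was lower on average, with overlap. By the quasi-likelihood test Gpr17 and Olig1 had an unadjusted p under 0.05, and Cspg4 and Cacng4 did not. The 10 striatal projection neuron markers summed to 488, 290 and 337 CPM in CFA libraries, against 1016, 502 and 397 CPM in saline libraries. Of the 9 tested, 0 were positive, 6 were lower at an unadjusted p under 0.05, against 1.87% of all genes, and the median log2 fold change was -1.01. In edgeR's quasi-likelihood test 0 members of either list were called at an adjusted p under 0.05. Oligodendrocyte, inhibitory neuron and corticothalamic markers had medians of -0.03, 0.27 and -0.21. In sorted bulk nuclei, fewer cells of a type and less RNA per cell cannot be told apart, and the part of these other cell types' transcripts in the effector levels was not tested.

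**Figure D5:**
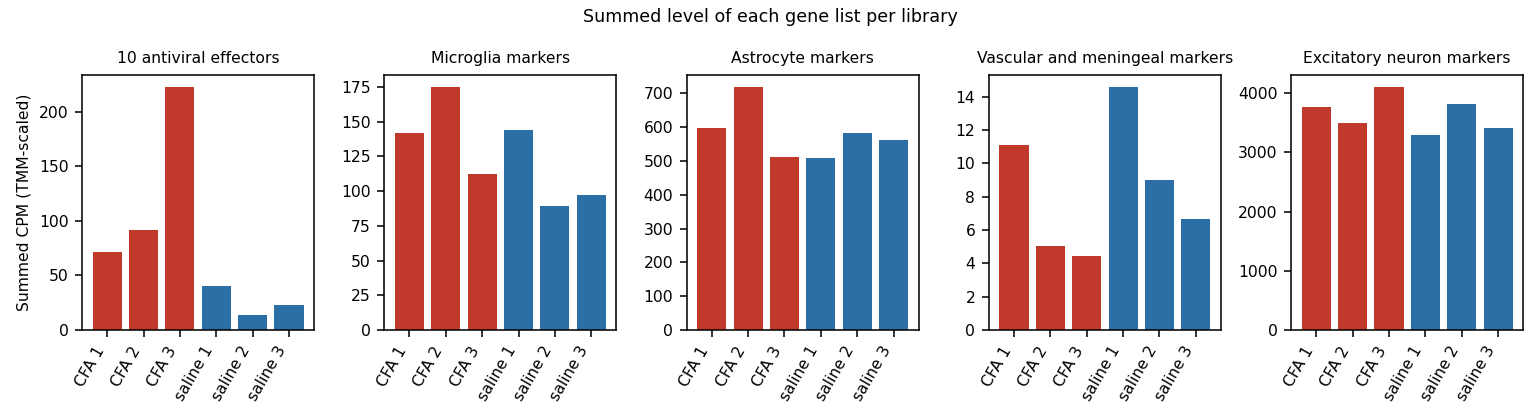
Summed TMM-scaled CPM (vertical axes start at 0 and differ between panels) of the 10 antiviral effectors and of 4 cell type marker lists in each CFA (red) and saline (blue) library. The effectors peak in CFA replicate 3 at 223 CPM, where microglia and astrocyte markers, at 112 and 512 CPM, are the lowest of the CFA group.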

How the data were processed

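Per the labels' protocols, RNA of 10000 sorted nuclei per library was amplified with the Smart-seq V4 kit in 9 PCR cycles, and 300 ng of the cDNA was tagged with the Nextera XT kit, which does not mark strand. The authors deposited raw counts per gene for all 6 libraries with exon intervals and exon lengths, per the file headers. The submitters' processing notes name Trim Galore, HISAT2 2.2.1, SAMtools 1.13, featureCounts 2.0.1, edgeR 3.32.1 and mm10. How strand and multi-mapping reads were set is not given in the sources used here. None of the 10 gene models overlaps the exons of another. Symbols of 27 other genes are in date form and were kept as rows.

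Groups and replicate numbers came from sample titles. Counts were fitted in edgeR 4.0.16 (R 4.3.3) with its quasi-likelihood test, TMM scaling, filterByExpr and treatment as the only term. Benjamini-Hochberg adjustment covered 13560 genes. The code was first run on simulated data with the same spread for every gene and changes only in abundant genes. That run does not show how often changes in genes as variable as these 10 would be found. Fold changes are CFA over saline, and SEs derive from the F statistic. Log2 CPM used a prior count of 2. DESeq2 1.42.0, limma-voom (limma 3.58.1) and the likelihood ratio test were alternatives. Sequences came from RefSeq (GRCm38.p6), and transcripts were compared in 50-base stretches of GENCODE M21. The 10 genes and all lists were chosen with earlier results of these data known. Named were the 10 genes, the 3 most abundant of each pathway list, genes called there, and the 6 genes most like the effectors (mean log2 CPM 2 or more). Others named were chosen after their values were seen: Ifit3b, Ifit1bl1, Uba7, Irf1, Irf7 (as a list member), Ddx58, Gpr17, Olig1, Cspg4 and Cacng4. A permutation test of 3 against 3 libraries cannot give a p below 0.1 and was not used. Some list members are counted but not reported here by name.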

Additional observations from a re-analysis of the deposited data

How the results depend on the processing

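With all libraries the quasi-likelihood test called 0 genes, 0 of the 10 effectors and 0 other pathway genes. Under RLE or library-size scaling, limma-voom and a stricter filter (5 CPM or more in 3 libraries), these counts were again 0. Without a filter on low counts 9 genes were called (0.0498% of those tested), 3 of them effectors (Ifit1, Oasl2 and Samd9l) and 1 another pathway gene. DESeq2 called 5, 1 and 1, and the likelihood ratio test 11, 2 and 1. With the replicate number as a block, 6 genes were called (0.0442%), 2 of them effectors (Ifit1 and Oasl2) and 1 another pathway gene. The labels do not say whether the numbers pair the libraries. Deviations of same-numbered libraries from their group means correlated across genes at -0.08, 0.02 and -0.07. Each mean rests on 3 libraries, so these values cannot decide whether the libraries are paired. Leaving out single libraries gave 0 to 5 genes (5 without saline replicate 3), 0 effectors and 0 pathway genes. The median log2 fold change of the effectors was 1.51 to 2.56 with 1 library left out. It was 3.29 under the 5 CPM filter, which left 3 of the 10 genes (Ifit1, Oasl2 and Samd9l). Of 143 fold changes of single effectors under alternatives, 142 were positive, Rsad2 without CFA replicate 3 and saline replicate 2 being the exception. Low counts of the genes limit the saline values: in saline replicate 2, with 11117681 counts in total, all effectors but Ifit2 and Samd9l had 0 to 2 counts.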
